A study of Mus musculus with 18 samples.

Results

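Transcription factor genes of developing neurons, 8 in all, were followed across the 6 brain RNA pools of a study of lead exposure in mouse pups: Nhlh1, Nhlh2, Neurod1, Insm1, St18, Zfp521, Pax6 and En2. They were chosen by their RMA values: the brightest probe set of each (the one with the highest mean signal over the pools) was higher after lead than after saline in all 3 genotypes. Their lead values are therefore a description, without a test. The array holds 16 probe sets assigned to exactly 1 of these 8 symbols, out of 34958 probe sets with a single symbol and 18194 genes. All 8 genes were among the 10916 genes kept for testing by brightness.

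Pups were wild-type (+/+), heterozygous (+/-) or homozygous (-/-, Mt-KO) for a metallothionein knockout, and the line had been backcrossed to C57BL/6J for 7 or more generations. The sample titles name C57BL/6J for the wild-type pools only. Genotype and any difference in strain background can therefore not be told apart. On postnatal days 7 and 8, pups of each genotype were injected 2 times per day, with 4 h between doses, with lead acetate (50 mg/kg) or with saline. Whole brains were taken at postnatal day 8, 6 h after the last injection, from pups of both sexes. RNA of 5 pups was pooled for each of the 6 combinations, and 1 Affymetrix expression array was run per pool. No combination was replicated, so the spread of a lead difference is that over the 3 genotypes. The p-values rest on what the additive fit left over, pooled over genes of similar brightness. The array values were deposited in 3 summaries of the same arrays (RMA and GC-RMA, both log2, and PLIER, linear). RMA values are given unless another summary is named.

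Neurons arise in steps from dividing progenitors, and each step is run by transcription factors that are switched on and off in turn. Basic helix-loop-helix (bHLH) factors such as Neurod1 and the Nhlh pair bind the short E-box motif in DNA and drive cells to leave the cycle and differentiate, while zinc finger factors such as Insm1 act in late progenitors and newborn neurons. Pax6 and En2 carry homeodomains, and both are known for patterning the embryonic brain as well as for later roles. In the mouse brain of the first postnatal weeks the cerebellum is still producing granule neurons from precursors at its surface, which are known to express several of these genes.

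The pools differed in array level, in RNA quality and in marker genes. With 1 pool per group, such differences cannot be told apart from effects of the groups. Over the genes tested, the median level lay between 10.87 (wild-type, lead) and 11.05 (wild-type, saline). The median lead minus saline difference was -0.18 (wild-type), 0.15 (heterozygous) and 0.09 (Mt-KO). Differences described below as relative to the median gene have these values subtracted. The excess of the Gapdh 3' over the 5' control probe set, a sign of RNA quality, was 1.19 in the wild-type saline pool and 0.54 to 0.82 in the others. The Mt-KO pair differed in the Y-linked Eif2s3y, at 6.50 after saline and 11.16 after lead. Xist, the female-expressed X-linked RNA, went the other way, at 12.75 after saline and 10.23 after lead. In the wild-type and heterozygous pools Eif2s3y lay at 9.45 to 10.45. The statement of both sexes is thus not borne out for the Mt-KO saline pool. The mix of sexes and lead can therefore not be told apart in the Mt-KO pair. The pituitary hormone gene Gh reached 11.48 with lead in heterozygotes and lay at 9.29 to 9.83 elsewhere. Mt1 followed the genotype labels, at 13.17 and 13.30 in the wild-type, 12.45 and 12.87 in the heterozygous and 11.68 and 11.71 in the Mt-KO pools.

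The bHLH genes Nhlh1, Nhlh2 and Neurod1 were each higher in the lead pool of every genotype. Nhlh1, a factor of newly formed neurons, measured 9.23 (wild-type), 9.38 (heterozygous) and 9.45 (Mt-KO) after saline, and in the same order 9.66, 9.69 and 9.94 after lead. The lowest lead value thus lay above the highest saline value, and lead exceeded saline by 0.41 ± 0.09 (log2, SD over the 3 pairs, n = 3). Its paralog Nhlh2, known for its role in the hypothalamus, measured 9.26, 9.57 and 9.72 after saline and 9.82, 10.16 and 10.57 after lead. The groups did not overlap here either, although the wild-type lead pool (9.82) was close to the Mt-KO saline pool (9.72). The lead excess of Nhlh2 was 0.67 ± 0.16 (n = 3), with 0.56 in the wild-type, 0.60 in the heterozygous and 0.85 in the Mt-KO pair. Neurod1, required for the survival and maturation of cerebellar and hippocampal granule neurons, measured 12.29, 12.50 and 12.40 after saline. After lead it measured 12.75, 12.89 and 12.92, an excess of 0.46 ± 0.07 (n = 3) with no overlap between the treatments.

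The bHLH genes Nhlh2, Nhlh1, Neurod1 and the homeodomain gene Pax6 had start-site windows in the RefSeq table (GRCm38.p6), which gave 5 windows of 300 bases for 4 of the 8 genes. The stretches upstream of the start are shown because these genes were higher with lead together and because 3 of them encode E-box binding proteins. Capitals mark the E-box, CANNTG, which reads the same on both strands. The array values carry no genome build, so the coordinates are those of the table. They are chr3:102009895-102010110 on the plus strand for Nhlh2 (ending before the gene's first annotated base), chr1:172057597-172057846 on the minus strand for Nhlh1, chr2:79456637-79456886 on the minus strand for Neurod1 and chr2:105668646-105668895 on the plus strand for Pax6.
Nhlh2: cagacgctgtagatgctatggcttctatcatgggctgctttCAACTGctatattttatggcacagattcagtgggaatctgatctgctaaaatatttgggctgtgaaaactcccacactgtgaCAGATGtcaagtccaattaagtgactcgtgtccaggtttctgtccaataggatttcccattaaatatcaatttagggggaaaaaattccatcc
Nhlh1: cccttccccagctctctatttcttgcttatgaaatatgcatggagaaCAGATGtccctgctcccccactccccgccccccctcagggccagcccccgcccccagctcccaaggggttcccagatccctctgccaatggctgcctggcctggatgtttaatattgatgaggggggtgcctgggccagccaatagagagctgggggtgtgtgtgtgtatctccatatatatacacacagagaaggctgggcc
Neurod1: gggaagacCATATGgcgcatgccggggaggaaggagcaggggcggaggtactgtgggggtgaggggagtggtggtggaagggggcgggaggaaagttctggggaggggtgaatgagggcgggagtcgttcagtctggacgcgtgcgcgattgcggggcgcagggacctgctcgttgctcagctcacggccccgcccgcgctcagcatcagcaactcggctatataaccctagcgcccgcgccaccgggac
Pax6: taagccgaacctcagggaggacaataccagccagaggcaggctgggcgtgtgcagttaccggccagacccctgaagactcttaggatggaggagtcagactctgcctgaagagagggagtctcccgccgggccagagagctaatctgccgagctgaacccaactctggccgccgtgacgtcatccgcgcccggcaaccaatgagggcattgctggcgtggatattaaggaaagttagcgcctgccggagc

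Of the 5 windows 4 held the E-box letters. The Nhlh2 window of 300 bases held 4 matches, of which CAACTG and CAGATG start 209 and 127 bases upstream of the start site, and the Nhlh1 window held 2, of which CAGATG starts 203 bases upstream. Neurod1 had 1 match, CATATG, 242 bases upstream. The Pax6 window shown had 0, and the second Pax6 window had 1. Over all 32851 windows, 72.3% held at least 1 CANNTG. The specific form CAGATG (or CATCTG, its reverse complement) was found in 2 of the 5 windows and in 17.2% of all windows, and CAGCTG, its own reverse complement, in 1 of 5 and in 16.3%. Both forms are included in CANNTG. Base composition differed widely between the windows, from 43.3% G and C in Nhlh2 to 66.7% in Neurod1, around the median of 52.7% over all windows.

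The zinc finger genes had SDs over the 3 pairs of 0.02 to 0.09. Insm1, which marks progenitors in their last divisions and nascent neurons and also acts in endocrine cells, measured 10.24, 10.51 and 10.50 after saline. The lead pools measured 10.99, 11.22 and 11.09, all above the saline pools. The excess was 0.68 ± 0.09 (n = 3), a factor of 1.60, close to that of Nhlh2 (0.67 ± 0.16). St18, a zinc finger factor of the Myt1 family, measured 9.93, 10.12 and 10.13 after saline and 10.56, 10.65 and 10.68 after lead. Its excess of 0.57 ± 0.05 (n = 3) was nearly the same in every pair (0.62, 0.53 and 0.55). Zfp521, a factor with many zinc fingers that promotes neural fate in stem cells, measured 11.07, 11.24 and 11.15 after saline. With 11.50, 11.62 and 11.54 after lead its excess of 0.40 ± 0.02 (n = 3) was close in size to that of Nhlh1 (0.41 ± 0.09).

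The homeodomain genes had SDs over the pairs of 0.13 and 0.16. Pax6, expressed in cortical progenitors and cerebellar granule cell precursors, measured 9.33, 9.46 and 9.78 after saline and 9.75, 10.14 and 10.31 after lead. It was the exception among the 8 genes in that the treatments overlapped, because the wild-type lead pool (9.75) lay below the Mt-KO saline pool (9.78). Within pairs the lead excess of Pax6 was 0.41, 0.68 and 0.53, on average 0.54 ± 0.13 (n = 3). En2, which patterns the midbrain and cerebellum, measured 9.28, 9.72 and 9.63 after saline and 10.02, 10.13 and 10.14 after lead. Its excess of 0.55 ± 0.16 (n = 3) was led by the wild-type pair (0.73, against 0.41 and 0.51), where the saline pool was low while the 3 lead pools lay within a narrow range.

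**Figure D1:**
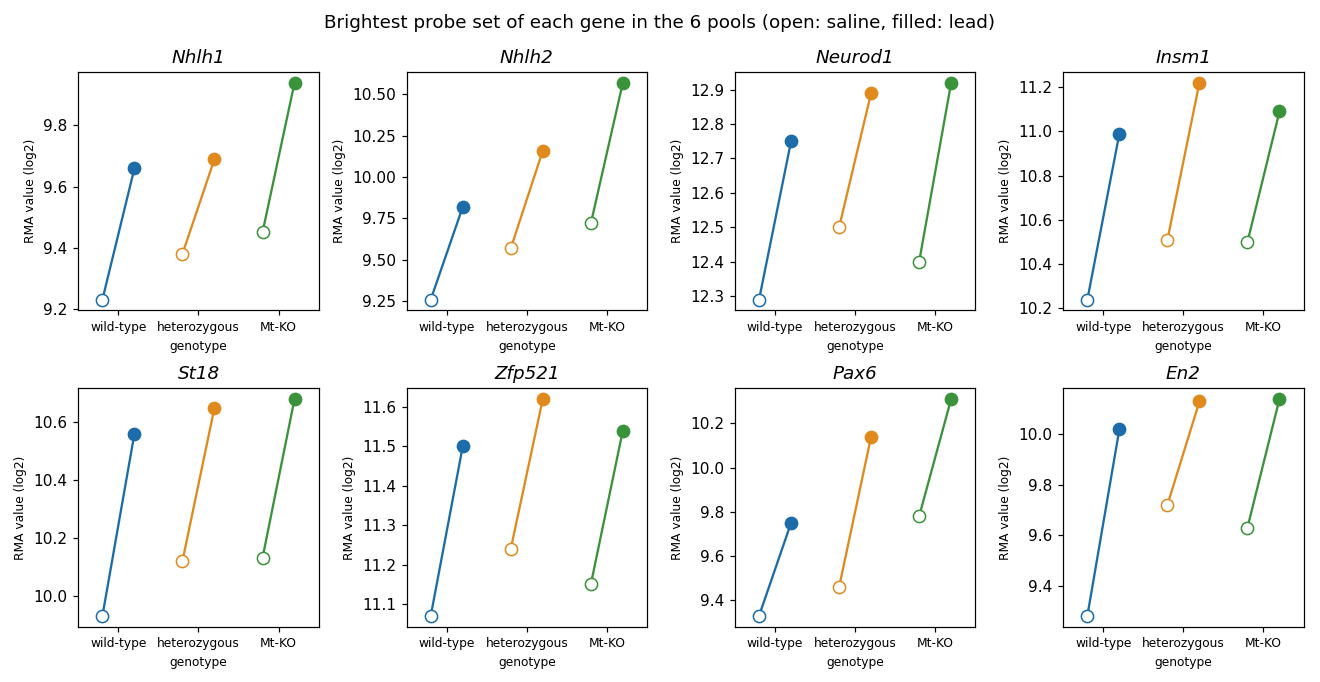
Brightest probe set of each gene (RMA value, log2, on an axis of its own per gene that does not start at 0), by genotype, with open circles for saline, filled circles for lead and a line joining each genotype's pools, 1 pool per circle. Each line climbs from saline to lead, and Pax6 is the gene whose wild-type lead pool (9.75) sits below the Mt-KO saline pool (9.78).

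In all 8 genes lead exceeded saline in the 3 pairs, as the choice of the genes fixes, whereas 8.55% of all genes tested did so. The 3 lead pools lay above the 3 saline pools in 7 of 8 genes, against 3.86% of the genes tested. For comparison, 0.0824% of all genes rose with lead in the limma fit (0.119% changed in either direction). Both shares describe the same contrast that chose the genes. Ordered by the fitted lead difference, the 8 genes held places 3 (Insm1) to 28 (Zfp521) of 10916. Relative to the median gene the differences were larger in the wild-type pair (0.60 to 0.94, median 0.69) than in the heterozygous (0.16 to 0.56, median 0.32) or the Mt-KO pair (0.29 to 0.75, median 0.44). That ordering was not tested. As deposited the medians over the 8 genes were close to each other, at 0.51, 0.47 and 0.52. Eif2s3y measured 10.45 after saline and 9.45 after lead in the wild-type pair, and 6.50 and 11.16 in the Mt-KO pair. The part of the mix of sexes in the lead differences was not tested.

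The wild-type saline pool was the lowest of the 6 pools for all 8 genes, and the Mt-KO lead pool was the highest for 6 of them. The heterozygous lead pool was highest for the remaining genes, Insm1 and Zfp521. Relative to each array's median and to each gene's own mean, the 8 genes averaged -0.52 ± 0.11 in the wild-type saline pool (SD over the 8 genes). The heterozygous and Mt-KO saline pools were close to each other at -0.14 ± 0.09 and -0.12 ± 0.08. The wild-type and heterozygous lead pools averaged 0.21 ± 0.11 and 0.22 ± 0.09, and the Mt-KO lead pool averaged 0.34 ± 0.16. The wild-type saline pool also had the largest Gapdh 3' excess (1.19), whose part in the lead differences was not tested. Without the wild-type pair the lead differences were 0.40 for Nhlh1, 0.72 for Nhlh2, 0.46 for Neurod1, 0.65 for Insm1, 0.54 for St18, 0.38 for Zfp521, 0.61 for Pax6 and 0.46 for En2. All were positive, as the choice of the genes fixes.

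The profiles of the 8 genes over the pools were alike. Pearson's r between any pair of them ranged from 0.784 (Zfp521 and Pax6) to 0.989 over the 6 pools, for 28 pairs of genes. These values describe genes picked for a common direction, measured on the same arrays.

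The other deposited summaries gave the same direction for the brightest probe sets. With GC-RMA, which corrects each probe for its base content, all 8 genes were higher with lead in the 3 pairs (15.0% of all genes tested were), with mean differences from 0.31 (Nhlh1) to 1.48 (Pax6). With log2(PLIER + 16) all 8 were again higher in the 3 pairs (7.24% of all genes), with mean differences from 0.36 (Zfp521) to 0.63. In both summaries the lead pools lay above the saline pools for 7 of 8 genes (6.50% and 2.87% of all genes), Pax6 being the exception each time.

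The sizes depended on the summary. With GC-RMA the mean difference was larger than with RMA for 7 of the 8 genes, Nhlh1 being the exception, and bright genes were among them, such as Insm1 (0.94 against 0.68) and Neurod1 (0.60 against 0.46). With GC-RMA, Pax6 measured 4.07, 3.54 and 5.74 after saline and 5.08, 5.76 and 6.95 after lead, a mean difference of 1.48 ± 0.65 (n = 3) where RMA gave 0.54. En2 differed by 1.81 in the wild-type pair with GC-RMA and by 0.73 with RMA. Nhlh1 lay at 2.21 to 3.02 with GC-RMA, a dim level (percentile 26.3 of all probe sets), and its difference there was 0.16, 0.64 and 0.13. The lowest lead pool of Nhlh1 then measured 2.38 and the highest saline pool 2.37.

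The 8 remaining probe sets of these genes were mixed. With RMA, 4 of them were higher with lead in all 3 pairs, against 14.5% of all probe sets that are not the brightest of their gene, and for 4 the lead pools lay at or above every saline pool (4.37% of such probe sets). The dimmer Neurod1 probe set (1426413_at) followed the brighter one (1426412_at), with 11.00, 11.24 and 11.12 after saline and 11.54, 11.60 and 11.69 after lead. The dimmer Insm1 probe set (1421399_at) differed by 0.69, 0.29 and 0.64, an average of 0.54 ± 0.21 (n = 3). For Zfp521 the dimmer probe set (1439909_at) differed by 0.18, 0.23 and 0.17, less than the 0.40 of the brighter one (1451332_at).

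St18 and Pax6 were the genes whose probe sets disagreed. The second St18 probe set (1436793_at) stayed between 7.55 and 7.80 in all pools, with differences of 0.13, -0.06 and -0.02, beside the 0.57 of the bright probe set (1455123_at). By RMA value 1436793_at lay at percentile 21, but by PLIER value it lay at 67.1, near 1455123_at at 71.6. Its PLIER differences were 0.11, -0.03 and 0.05. Of the 5 Pax6 probe sets, 1419271_at was the brightest by RMA value and alone stood for the gene in the brightness filter and the tests. Pax6 probe sets 1437816_at, 1456342_at and 1425960_s_at had mean differences of 0.02, 0.00 and 0.02, and 1452526_a_at had 0.69 in the wild-type pair and 0.14 and 0.16 in the others. These 4 lay at percentiles 15.6 to 39.9 of all probe sets by RMA value. By PLIER value, however, 1456342_at lay at percentile 64.2, above 1419271_at at 56.5, and its PLIER differences were -0.21, 0.17 and -0.26. Pax6 probe set 1437816_at lay at percentile 52.8 by PLIER value, with differences of 0.38, 0.00 and 0.04. Averaged over all probe sets of the gene, the lead excess fell to 0.18 for Pax6 and to 0.29 for St18. With GC-RMA 6 of the 8 dimmer probe sets were higher in all 3 pairs, but so were 43.0% of all such probe sets. With PLIER 5 of 8 were, against 14.5%.

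**Figure D2:**
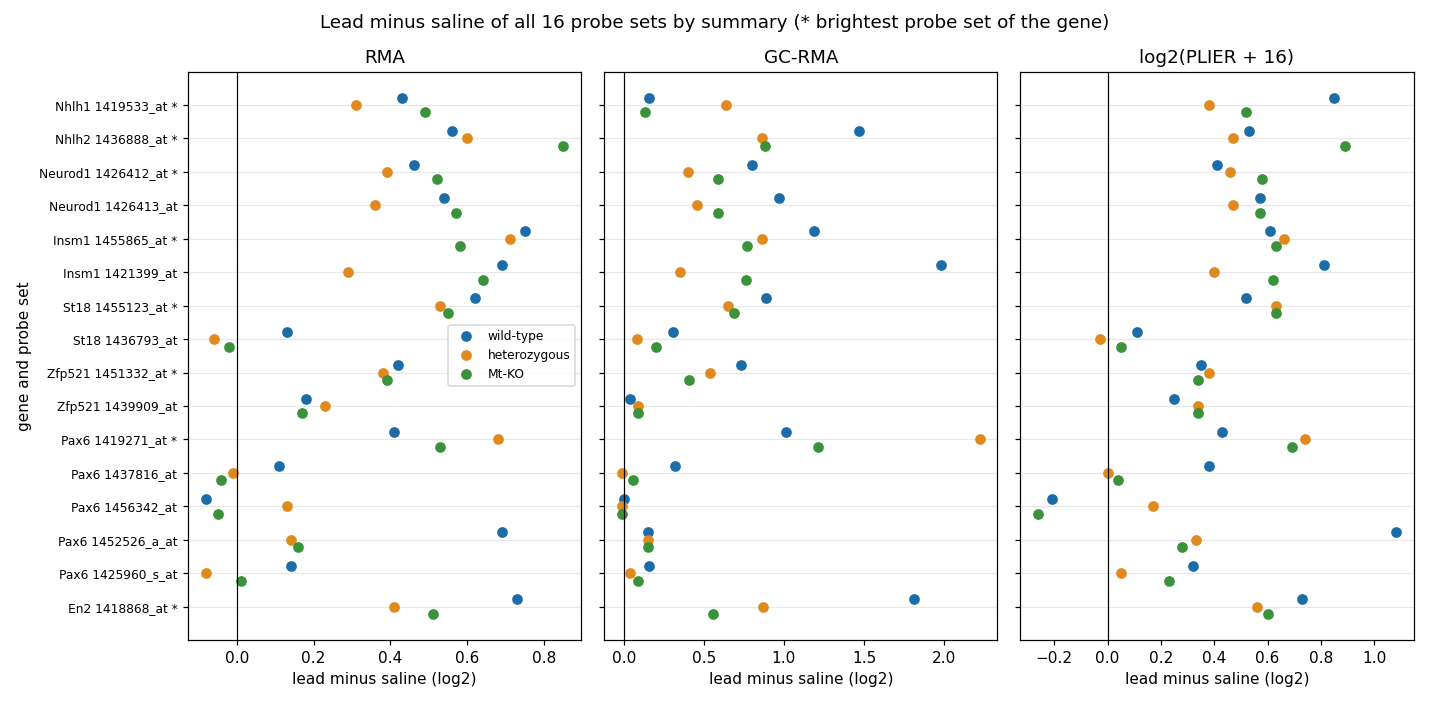
Lead minus saline (log2) of all 16 probe sets (rows, an asterisk marking the brightest of each gene), coloured by genotype, in 3 panels for RMA, GC-RMA and log2(PLIER + 16), whose horizontal axes differ, with 1 pair of pools per point. All points of the 8 marked rows lie right of 0, whereas the second St18 probe set and Pax6 probe sets such as 1456342_at scatter around 0.

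Metallothionein genotype, fitted over both treatments, was a comparison that the choice of the genes did not use. Relative to wild-type, Nhlh2 rose 1.52-fold in Mt-KO brain (a log2 difference of 0.61, SE 0.14, limma adjusted p = 0.00728), and it was the 1 of the 8 genes that passed, where 0.431% of all genes tested passed (0.311% higher). The difference was 0.46 after saline and 0.75 after lead, or 0.59 and 0.61 relative to the median gene. Pax6 was 1.42-fold higher (log2 0.51, SE 0.14) and did not pass (limma adjusted p = 0.059), with 0.58 after saline and 0.43 after lead relative to the median gene. The other 6 genes had coefficients from 0.06 (Zfp521) to 0.26 (Nhlh1), each with a limma adjusted p of 1. Relative to the median gene these 6 were higher in the Mt-KO saline pool by 0.21 to 0.47 and differed by -0.10 to 0.14 between the lead pools. The choice of the genes compared the saline and lead pools of each genotype. Differences given apart for saline and for lead are therefore not independent of that choice.

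The Nhlh2 call depended on the settings. Of 14 alternatives, 3 kept it, namely a threshold of 0.10 and leaving out either wild-type array, and in those 2 fits 2429 and 4380 of all genes passed. Nhlh2 did not pass with GC-RMA (0.80, limma adjusted p = 0.766), PLIER (0.55, 0.770) or quantile normalization (0.58, 0.269). It was also lost without either heterozygous array (0.61 in both, 0.363 and 0.330), without the Mt-KO saline array (0.74, 1) and without the Mt-KO lead array (0.47, 1). Its sign was the same in all 14, with values from 0.47 to 0.80 and adjusted p from 0.000229 to 1. For Pax6 the coefficient ranged from 0.18 over the mean of its probe sets to 1.77 with GC-RMA. At a threshold of 0.10 Pax6 passed (limma adjusted p = 0.059). Its coefficient was 0.61 without the wild-type saline array and 0.41 without the wild-type lead array, fits that leave 1 wild-type array. Without that lead array the coefficient was 0.23 for Insm1 and 0.37 for En2.

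For heterozygous against wild-type brain 0 of the 8 genes passed in the main fit (limma, 0.119% of all genes passed, 0.0733% higher). Of the 8, 1 gene, Nhlh2, had an unadjusted limma p under 0.05, as did 131 of all 10916 genes tested. GC-RMA called 0 genes of all while PLIER called 10. The coefficients ranged from 0.09 (SE 0.14) for Nhlh1 to 0.33 (SE 0.14) for Nhlh2, with Pax6 at 0.26 (SE 0.14) and En2 at 0.28 (SE 0.14), each with a limma adjusted p of 1. Over the 8 genes the median coefficient was 0.21 for heterozygous and 0.20 for Mt-KO against wild-type, beside medians of 0.00 and -0.03 over all genes tested. Both comparisons use the same wild-type pools, among them the saline pool in which all 8 genes were lowest. Without the wild-type saline array the heterozygous coefficient was 0.41 for Nhlh2 and 0.36 for Pax6 but 0.14 for En2. Without the wild-type lead array it was 0.30 for Insm1 and 0.41 for En2 but 0.24 for Nhlh2 and 0.16 for Pax6.

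**Figure D3:**
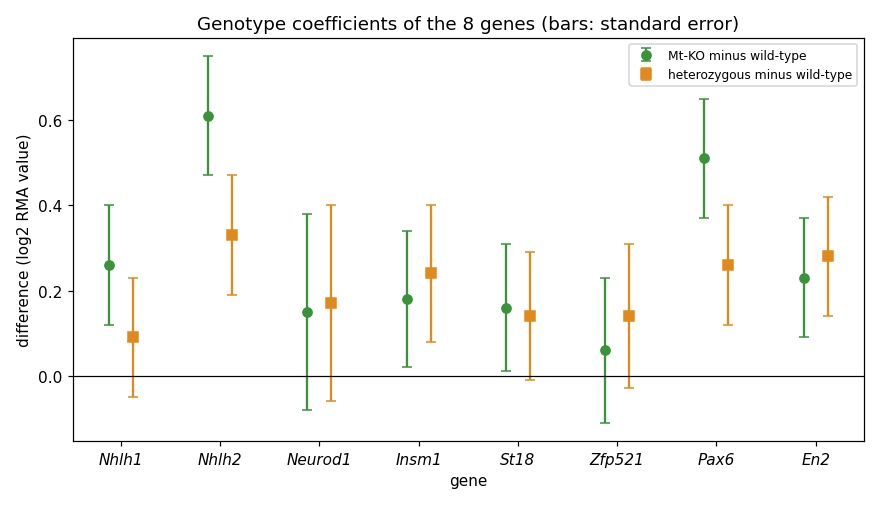
Fitted difference from wild-type (log2 RMA value, vertical axis) of the 8 genes for Mt-KO (circles) and heterozygous brains (squares), with bars for the standard error of the limma fit over 6 arrays. The bars come from the trend of variance with brightness, not from each gene's own spread. Nhlh2 (0.61) and Pax6 (0.51) have the highest Mt-KO values, and Zfp521 (0.06) the lowest.

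Close relatives of the 8 genes had lead differences from -0.08 to 0.11. Of 13 listed paralogs 7 were tested, and 0 passed with limma, where 0.119% of all genes tested did, so a count of 0 says nothing particular about them. The median lead difference of the 7 was 0.04, beside 0.02 over all genes, and none was higher in all 3 pairs. In the family of St18, Myt1 measured 9.63 to 9.83 (lead difference 0.03, SE 0.11) and Myt1l 12.66 to 13.23 (0.08, SE 0.20). Among relatives of Pax6, the lead difference was -0.08 for Pax1, 0.09 for Pax3, 0.00 for Pax4 and 0.04 for Pax9. Zfp423, the paralog of Zfp521, differed by -0.17, 0.05 and 0.47 in the 3 pairs. En1, the partner of En2 in midbrain patterning, lay at 7.01 to 7.28 and Insm2 at 8.09 to 8.18, both too dim to be tested.

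Few proneural genes were bright enough to be tested. Of 13 listed proneural bHLH genes 2 were bright enough, Neurod2 (lead difference 0.08, SE 0.19) and Neurod6 (0.07, SE 0.20), and neither passed. Neurod2 is also in the granule neuron list, and Neurod6 in the forebrain list. Atoh1, the factor that specifies granule cell precursors, was below the filter at 8.37, 8.44 and 8.69 after saline and 8.54, 8.37 and 8.78 after lead. Of 17 bHLH partners, Id proteins, Hes and Hey repressors and Notch components 15 were tested, with a median lead difference of 0.01 beside 0.02 over all genes, and 0 passed with limma (0.119% of all genes did). The largest were Tcf12, an E-protein partner of bHLH factors (0.27, SE 0.16), and Tcf4, another E-protein (0.16, SE 0.26).

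Cerebellar lists had median lead differences above the 0.02 of all genes, without a member that passed. So did lists such as astrocyte and microglia (0.22 each) and cell division (0.17). Relative to the median gene, the heterozygous pair gave 0.03 (granule precursor), 0.08 (Purkinje cell) and -0.08 (granule neuron). In the same order the wild-type pair gave 0.25, 0.41 and 0.49, and the Mt-KO pair 0.21, 0.12 and 0.03. In the granule precursor list 13 of 14 tested genes had a lead difference above 0 (60.7% of all genes did), with a median of 0.17. Of these genes 7 were higher in all 3 pairs (8.55% of all genes tested were). The mean level of the 18 measured genes of that list was 10.21 to 10.23 in the saline pools and 10.31 to 10.46 in the lead pools, without overlap. This was not particular to cerebellar lists. The microglia list did not overlap either (10.09 to 10.17 after saline, 10.22 to 10.39 after lead). The astrocyte list did overlap (12.45 to 12.78 after saline, 12.69 to 12.95 after lead). The leading genes of the granule precursor list were Zic1 (0.45, SE 0.27) and Zic5 (0.42, SE 0.13, limma adjusted p = 0.441), zinc finger factors of granule cell precursors. The Purkinje cell list had 9 of 10 genes above 0, with 7 higher in all 3 pairs. Its median was 0.22, led by Car8 (0.50, SE 0.16) and Lhx1 (0.47, SE 0.12, limma adjusted p = 0.0677). The mean level of its 12 measured genes was 10.57 to 10.71 after saline and 10.83 to 10.86 after lead. All 5 tested genes of the granule neuron list lay above 0 (median 0.18), led by Cbln1 (0.35) and Fat2 (0.20). The part of these lists in the differences of the 8 genes was not tested. In RNA of a whole brain, more cells of a type and more RNA per cell cannot be told apart, and the same holds for the amount of cerebellum in a pool.

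Lists of other stages and regions held 1 gene that passed, Hoxa5. All 12 tested cell division genes lay above 0 (60.7% of all genes did), and 8 were higher in all 3 pairs (8.55% of all genes were). Their median was 0.17, led by Ccna2 at 0.32 and Mki67 at 0.27. Mean levels of the list ran from 9.92 to 10.02 after saline and from 9.96 to 10.21 after lead, which overlap. Immature neuron genes had a median of 0.14, but in the wild-type pair the median lay 0.10 below that of all genes (-0.10, against 0.30 and 0.17). Igfbpl1 led that list (0.32, SE 0.12), followed by Cd24a (0.18). Forebrain genes had a median of 0.01, led by Cux2 (-0.09) and Neurod6 (0.07), and forebrain interneuron genes one of -0.03, led by Dlx1 (-0.22) and Tshz1 (-0.10). Of the Hox genes of the hindbrain 4 were tested, and Hoxa5 fell by 0.60 (SE 0.13, limma adjusted p = 0.00561), while the next largest was Hoxc5 (0.06). The Hoxa5 call was lost without the heterozygous (-0.43) or the Mt-KO pair (-0.52), with a limma adjusted p of 1 each. All 10 measured genes of the midbrain and hindbrain boundary list were too dim to be tested, with mean levels from 7.97 to 8.15.

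**Figure D4:**
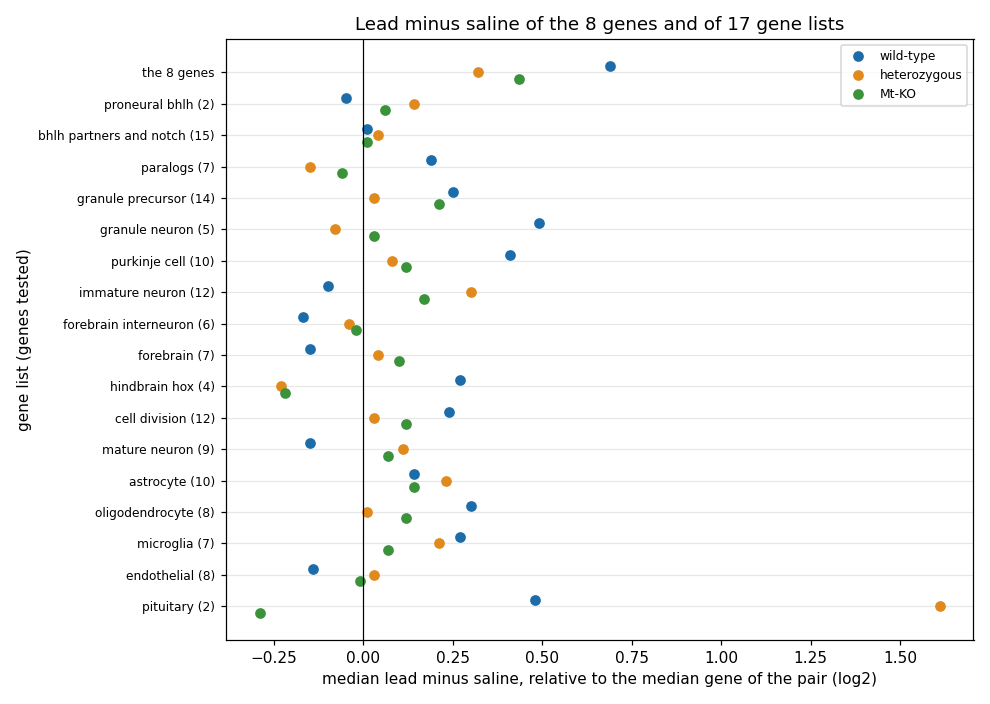
Median lead minus saline (log2, relative to the median gene of each pair, horizontal axis) of the 8 genes and of 17 gene lists (rows, with the number of genes tested in brackets), with 1 point per genotype pair. The 8 genes lie at 0.69 (wild-type), 0.32 (heterozygous) and 0.44 (Mt-KO), while the granule neuron list lies at 0.49, -0.08 and 0.03.

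Markers of brain cells were present in all pools, and those of other tissues were mostly dim. Mean list levels were 13.01 to 13.51 for mature neurons, 12.45 to 12.95 for astrocytes, 11.29 to 11.78 for oligodendrocytes, 10.09 to 10.39 for microglia and 10.07 to 10.30 for endothelium. In the mature neuron list 7 of 9 genes lay above 0 (60.7% of all genes did), and 0 passed with limma. The median was 0.06, led by Syn1 at 0.20 and Snap25 at 0.16. The astrocyte list had a median of 0.22 (led by Slc1a3 at 0.33 and Gjb6 at 0.29), the microglia list 0.22 (C1qa and Ctss at 0.36 each) and the oligodendrocyte list 0.12 (Mbp at 0.36 and Cnp at 0.28). Of the endothelial list Vwf rose by 0.47 (SE 0.11, limma adjusted p = 0.0206), while the list's median was -0.02. The Vwf call was lost without the heterozygous (0.38) or the Mt-KO pair (0.56), with a limma adjusted p of 1 each.

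Insm1, Neurod1 and Pax6 are also known in endocrine cells, and Neurod1 and Pax6 in the retina. The mean level of 8 measured retina genes was 7.90 to 7.98 in all pools and 0 of them was bright enough to be tested. Pituitary genes averaged 9.45 with lead in heterozygotes and 8.72 to 8.90 elsewhere, and Gh and Pomc were tested (lead differences 0.85 and 0.39). Gh differed by 0.51 in the wild-type, 2.15 in the heterozygous and -0.11 in the Mt-KO pair, so it did not rise in every pair. It passed (limma adjusted p = 6.61e-10) with an SE that did not reflect this spread, and Pomc did not pass (0.261). Without the heterozygous pair Gh no longer passed (0.20, limma adjusted p = 1). It was also lost with eBayes without trend (0.85, SE 0.30). The part of the pituitary transcripts in the lead differences of the 8 genes was not tested.

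The genes whose profile was most like the mean of the 8 genes over the 6 pools, outside the 8 themselves, were Srrm4 (Pearson's r = 0.999), Gng12 (0.996), Car8 (0.985), Meis1 (0.983), Rbck1 (0.982), Cbln1 (0.980), Ypel5 (0.979) and Tmem132a (0.978). Values were taken relative to each array's median, and all points share the arrays with the 8 genes. Car8 measured 11.69, 11.99 and 11.98 after saline and 12.30, 12.43 and 12.42 after lead, a profile close to that of Neurod1 and St18. Meis1, a homeodomain gene of granule cell precursors, measured 9.54, 9.69 and 9.75 after saline and 9.85, 10.00 and 10.14 after lead. Srrm4, a splicing factor of neural microexons, had the highest correlation but a spread over pools of only 0.06 (SD, log2), with a lead difference of 0.11 (SE 0.14). None of these genes passed for lead (limma adjusted p from 0.782 for Car8).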

How the data were processed

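Expression of mouse brain RNA was measured on 6 arrays, each a pool of 5 pups, and the deposited table holds 18 columns, 3 summaries of each array. Per the labels' titles, the authors deposited RMA and GC-RMA values, both log2, and PLIER values, a linear intensity that was analysed here after adding 16 and taking log2. Partek, RMA, GCRMA and PLIER are named in the submitters' processing notes, without versions.

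Of 45101 probe sets, 34958 had 1 gene symbol in the platform annotation, 932 several and 9211 none. Each gene was represented by its brightest probe set by mean RMA value, and the upper 60% of genes (10916) entered the tests (limma 3.58.1, R 4.3.3). The additive fit of genotype and treatment used lmFit and eBayes with trend, two-sided, with Benjamini-Hochberg adjustment over all genes and a threshold of 0.05. It leaves 2 residual degrees of freedom, and limma's prior was infinite. In the main fit each gene's variance was therefore set by the trend of variance with brightness. SEs and p-values of that fit do not reflect a gene's own spread over the pairs. The script was tested on simulated data.

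The genes and the 19 lists were chosen with earlier results of these data known. Named were the 8 genes, list genes that passed or otherwise the 2 with the largest lead difference per list, all tested paralogs, and the 8 genes most alike in profile. Atoh1, En1 and Insm2, below the filter, were named in addition after their values were seen. Alternatives were GC-RMA, PLIER, quantile normalization, array centring, testing all genes or the brightest 40%, averaging a gene's probe sets, no trend, no genotype block, a threshold of 0.10 and leaving out pairs or arrays. For the list genes that passed for lead, these were added after seeing the data. Probe sets with several symbols were not used here. The number of arrays limits the precision.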

Additional observations from a re-analysis of the deposited data

Results flagged for a closer look

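Relative to the median gene, 5 of the 8 dimmer probe sets differed between lead and saline in opposite directions between genotypes, and the difference between genotypes was not tested. The medians subtracted were -0.18 (wild-type), 0.15 (heterozygous) and 0.09 (Mt-KO). A probe set without any lead difference would therefore also come out positive, negative and negative. The share of all dim probe sets with opposite directions was not determined. Given for wild-type, then heterozygous, then Mt-KO, the values were 0.31, -0.22 and -0.11 for St18 (1436793_at), and 0.29, -0.16 and -0.14 for Pax6 (1437816_at). For the other Pax6 probe sets they were 0.11, -0.02 and -0.15 (1456342_at), 0.88, -0.01 and 0.07 (1452526_a_at), and 0.32, -0.23 and -0.08 (1425960_s_at).

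The medians of 9 lists also went opposite ways, with no test of the difference. The same medians over all genes were subtracted here. In the same order of pairs they were -0.05, 0.14 and 0.06 for proneural bHLH genes, 0.19, -0.15 and -0.06 for paralogs, 0.49, -0.08 and 0.03 for granule neurons, and -0.10, 0.30 and 0.17 for immature neurons. Forebrain genes had -0.15, 0.04 and 0.10, Hox genes 0.27, -0.23 and -0.22, and mature neuron genes -0.15, 0.11 and 0.07. Endothelial genes had -0.14, 0.03 and -0.01, and pituitary genes 0.48, 1.61 and -0.29.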

How the results depend on the processing

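All 8 genes kept a positive mean lead difference under each of 8 alternatives, with ranges of 0.31 to 0.58 for Nhlh1, 0.58 to 1.07 for Nhlh2, 0.41 to 0.60 for Neurod1, 0.61 to 0.94 for Insm1, 0.29 to 0.74 for St18, 0.29 to 0.56 for Zfp521, 0.18 to 1.48 for Pax6 and 0.46 to 1.08 for En2. The numbers of genes called were less stable. For lead limma called 13 genes, against 0 with GC-RMA (294 at an unadjusted p under 0.05), quantile normalization (552), centring (411), no filter on dim genes (289), the mean over probe sets (179), no trend (114) and no genotype block (191), 4 among the upper 40% of genes, and 1 to 2632 when a pair was left out. For Mt-KO the 47 became 0 with GC-RMA (592 unadjusted), 1 after quantile normalization, 7 after centring, 6 without the filter, 20 among the upper 40%, 10 over the mean of probe sets, 4 without trend, and 8 to 4380 without 1 array. For heterozygous brains the 13 became 0 with GC-RMA (161 unadjusted), quantile normalization (306), centring (260), no filter (280), the mean over probe sets (128) and no trend (73), 6 among the upper 40%, and 3 to 2627 without 1 array. Signs turned for Mt-KO with GC-RMA in Insm1 (-0.0017) and Zfp521 (-0.0387), with PLIER in Zfp521 (-0.0054), and for heterozygous St18 over the mean of its probe sets (-0.0123). Of the list genes that passed for lead, Gh kept its call under 4 of 12 alternatives, Hoxa5 under 3 of 13 and Vwf under 2 of 12, each with its sign. The causes were not tested. Nhlh1 was dim with GC-RMA, and the dimmer Pax6 and St18 probe sets were dim with RMA. By PLIER value St18 probe set 1436793_at was not dim (percentile 67.1). The part of dim signal in these values was not tested. Lead was compared within the 3 genotype pairs throughout, except in the fit with no genotype block, and the labels give no replicate numbers for a further pairing.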
